A study of Ovis aries with 2 samples.

Results

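HES6-positive cells of the sheep anterior pituitary in which hormone transcripts were held under set limits numbered 249 of 29621 cells kept from the series. They were proposed as candidate committed progenitors and were chosen by transcript level alone. A cell needed at least 500 genes and 1000 UMIs (unique molecular identifiers, each standing for 1 captured transcript). It also needed at least 3 HES6 UMIs making up at least 0.04% of its UMIs. Cells were left out at 25% or more PRL, 10% or more GH, 0.3% or more LHB, or 1% or more POMC or TSHB. Cells with 2 or more SCGN UMIs, or with 3 or more of the cycle genes TOP2A, MKI67, CENPF, NUSAP1, UBE2C and HMMR, were left out as well. These limits cap hormone transcripts and do not exclude them, and every selected cell held PRL, at up to 17.0% of its UMIs at 6 months and 24.3% at 3 months. The levels of these genes in the selected cells are therefore set by the selection and are given only as a description. Stem cells, with at least 3 of SOX2, KRT19, CRYM, CAPN6, TMEM213 and THBS4 and no HES6 UMI, numbered 8200 and were the cells they were set against.

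The series holds dissociated anterior pituitaries of Hu sheep, a Chinese breed kept for early puberty and large litters, at 6 and at 3 months of age. The animals carried no labelled treatment or genetic change. Each age was 1 droplet library, and the labels do not say how many animals, or of which sex, it held. Age and library therefore cannot be told apart, and no test between ages was made.

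HES6 belongs to the HES family of basic helix-loop-helix repressors but works against its relative HES1, the Notch target that keeps precursor cells undifferentiated, as shown in mouse. It is switched on by proneural factors in neural and neuroendocrine precursors that are leaving the precursor state. In the mouse pituitary, stem cells that carry SOX2 and active Notch signalling give rise to progenitors that stop dividing, with the cycle inhibitor CDKN1C, before they take on a hormone lineage.

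The kept cells numbered 13253 at 6 months and 16368 at 3 months, with medians of 9599 and 5220 UMIs. The libraries held 175239612 and 142479651 UMIs in all, and 81 cell barcodes occurred in both. HES6-positive cells were 63 of the kept cells at 6 months, a share of 0.475% with an exact 95% interval of 0.365% to 0.608%. At 3 months they were 186, or 1.14% with an interval of 0.980% to 1.31%. Stem cells made up 19.1% at 6 months and 34.6% at 3 months. These intervals cover counting error only. HES6-positive cells had medians of 7124 UMIs at 6 months and 6512 at 3 months, against 6858 and 5013 in stem cells, and 1 of them carried a barcode found in both libraries.

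Enough HES6 for the rule was found in 523 cells, and the further limits removed 274 of them. Most of those were removed for SCGN, 25 at 6 months and 203 at 3 months. LHB removed 3 and 46, PRL 5 and 6, GH 0 and 5, and the cycle genes 0 and 1, while POMC and TSHB removed none. A cell could fall under several limits. Any HES6 UMI was seen in 14.0% of kept cells at 6 months and 12.0% at 3 months, and the selected cells held 20.3% and 31.3% of all HES6 UMIs. Within them HES6 had between 3 and 41 UMIs with a median of 8 at 6 months, and between 3 and 73 with a median of 7 at 3 months. Just inside the limit, 9 and 23 cells had exactly 3 HES6 UMIs. Just outside, 19 and 25 cells passed the share limit with 2 HES6 UMIs. A further 22 and 29 cells had 3 or more HES6 UMIs but less than 0.04%.

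Part of the selected cells also carried transcripts of immune or endothelial cells. At least 2 markers of macrophages, of T or natural killer cells, of B or plasma cells or of endothelium were found in 23 of the 63 cells (36.5%) at 6 months and 21 of the 186 (11.3%) at 3 months. In stem cells the shares were 12.7% and 9.58%. Macrophage markers, 7 genes, were the most frequent, with 21 and 15 HES6-positive cells, and all 7 were detected. Their summed level in HES6-positive cells was 2835 CPM (UMIs scaled to a common total) at 6 months and 695 CPM at 3 months, while stem cells had 239 and 206 CPM. In the remaining 40 and 165 HES6-positive cells it was 27.9 and 29.4 CPM, and all 7 T or natural killer cell markers were at 0 in those of 6 months. The same marker genes chose the cells set apart, so their low level in the remaining cells was largely set by that choice. Doublet calling marked 2 and 6 of the HES6-positive cells. Of the marked cells, 2 and 5 were among those with immune or endothelial markers. The comparison with stem cells and that of ages were also computed without the 44 cells carrying immune or endothelial markers.

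The label rests on HES6 alone, so other genes of differentiating epithelial and neuroendocrine cells were looked at beside it, and the 3 named here were chosen after their values were seen. CDKN1C, the cycle inhibitor p57, was detected in 47 of 63 HES6-positive cells at 6 months and 142 of 186 at 3 months. SOX4, a factor of differentiating neural cells, was detected in 53 and 177, and SERPINA1, which encodes a protease inhibitor, in 32 and 107. With every cell thinned to 2000 UMIs, SERPINA1 was seen in 35.5% and 41.7% of HES6-positive cells, against 0.205% and 0.485% of stem cells. Endothelial cells and macrophages, a measure of background, gave 0.471% and 0.455%. For CDKN1C the thinned shares were 59.7% and 56.6% in HES6-positive cells, 22.8% and 22% in stem cells, and 13.3% and 14.5% in endothelial cells and macrophages. Thinning left out 1 HES6-positive cell at 6 months and 11 at 3 months, and median depths before it were 4924 and 3271 UMIs in the endothelial cells and macrophages. The cells carrying immune or endothelial markers had less of these genes. SOX4 was at 662 and 912 CPM on UMI totals in them at 6 and 3 months, and at 1959 and 1772 CPM in the other HES6-positive cells.

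Set against stem cells, the HES6-positive cells had far more SERPINA1, more of a group of neuronal and neuroendocrine genes, and less of Notch target, stem cell, growth factor and matrix genes. The comparison used the counts summed over each cell set of each library, which gave 4 sums, and edgeR's quasi-likelihood test with library as a block. Of 14381 genes tested, 1346 (9.36%) were higher and 1600 (11.1%) lower at an adjusted p under 0.05. Of the higher genes 1300 lay above stem cells in both libraries, 657 of them by 2-fold or more, and of the lower genes 1561 lay below in both, 807 by 2-fold or more. Without the library block the counts were 391 and 427. Without the cells carrying immune or endothelial markers, 1574 of 13747 genes (11.4%) were higher and 1836 (13.4%) lower. The test had 1 residual degree of freedom before moderation across genes. Its p-values therefore rest on 1 pair of libraries and on a spread largely shared across genes. A small p-value does not show that a gene differed alike in both libraries. The rule on SCGN and hormones applied to the HES6-positive cells only. CPM here are on edgeR's effective library sizes, and log2 ratios are HES6-positive over stem cells.

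The genes with the largest differences present in both libraries led with a protease inhibitor. SERPINA1, which encodes alpha-1 antitrypsin, stood at 531 CPM at 6 months and 435 at 3 months in HES6-positive cells, against 1.17 and 2.36 in stem cells. Its log2 ratios were 8.83 and 7.52 (fitted log2 ratio 8.09, SE 0.26, adjusted p = 8.49e-37). SERPINI2, another member of the serpin family, had 159 and 86.0 CPM in HES6-positive cells at 6 and 3 months, against 1.65 and 1.14 CPM in stem cells (fitted log2 ratio 6.40). In both serpin genes the log2 ratio was 6.23 or more in each library. HES2, a further HES family member, had 111 and 169.9 CPM in HES6-positive cells at 6 and 3 months, against 1.10 and 2.85 CPM in stem cells (fitted log2 ratio 6.19, SE 0.26, adjusted p = 6.02e-30). PEG10, an imprinted gene derived from a retrotransposon, had 304 and 229 CPM in HES6-positive cells at 6 and 3 months, against 6.25 and 6.58 CPM in stem cells (fitted log2 ratio 5.35).

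The other genes named by this rule had fitted log2 ratios between 3.73 and 5.00. PPP1R1A, an inhibitor of protein phosphatase 1, had log2 ratios of 5.14 at 6 months and 4.89 at 3 months, and MICAL2, an actin-oxidising enzyme, 4.56 and 4.55. ARC, an activity-regulated gene of neurons, had 4.33 and 4.65, and KRT7, a keratin of simple epithelia, 4.16 and 4.25. KRT7 was present in 42 of the 63 and 164 of the 186 cells, at 686 and 807 CPM in HES6-positive cells at 6 and 3 months, against 38.5 and 42.4 CPM in stem cells. GSTM3, a glutathione transferase, was the most abundant of the group, with 1934 and 1673 CPM in HES6-positive cells at 6 and 3 months, against 141 and 119.6 CPM in stem cells and ratios of 3.78 and 3.81. TAMALIN and HOMER2, both scaffold proteins of synapses, had fitted ratios of 4.23 and 3.73, and TAMALIN had 5.73 without the cells carrying immune or endothelial markers. SLC34A3, a phosphate transporter, and NOL4 each had 3.74. OTOS, which encodes otospiralin, differed more between the libraries, at 3.70 at 6 months and 5.80 at 3 months, with 243 and 784 CPM in HES6-positive cells at 6 and 3 months, against 18.6 and 14.1 CPM in stem cells.

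Among the genes named as lower, PDZK1IP1, a membrane protein, had 21.0 and 14.3 CPM in HES6-positive cells at 6 and 3 months, against 128 and 85.5 CPM in stem cells (fitted log2 ratio -2.59, SE 0.26, adjusted p = 2.41e-12). In both libraries its HES6-positive sums lay below the stem cell sums. TLL2, a metalloproteinase, had 3 and 16 UMIs in HES6-positive cells at 6 and 3 months, against 1819 and 3439 in stem cells (fitted log2 ratio -3.05, SE 0.31, adjusted p = 1.95e-12). A further 11 had between 1 and 2 UMIs at 6 months and between 1 and 6 at 3 months in HES6-positive cells. They were VIT, EHD2, ARHGAP6, APOA1, LIPH, CHRDL1, HEPACAM, AK4, NOSTRIN, KANK4 and PTPRZ1, with fitted ratios between -3.30 and -2.74.

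**Figure D1:**
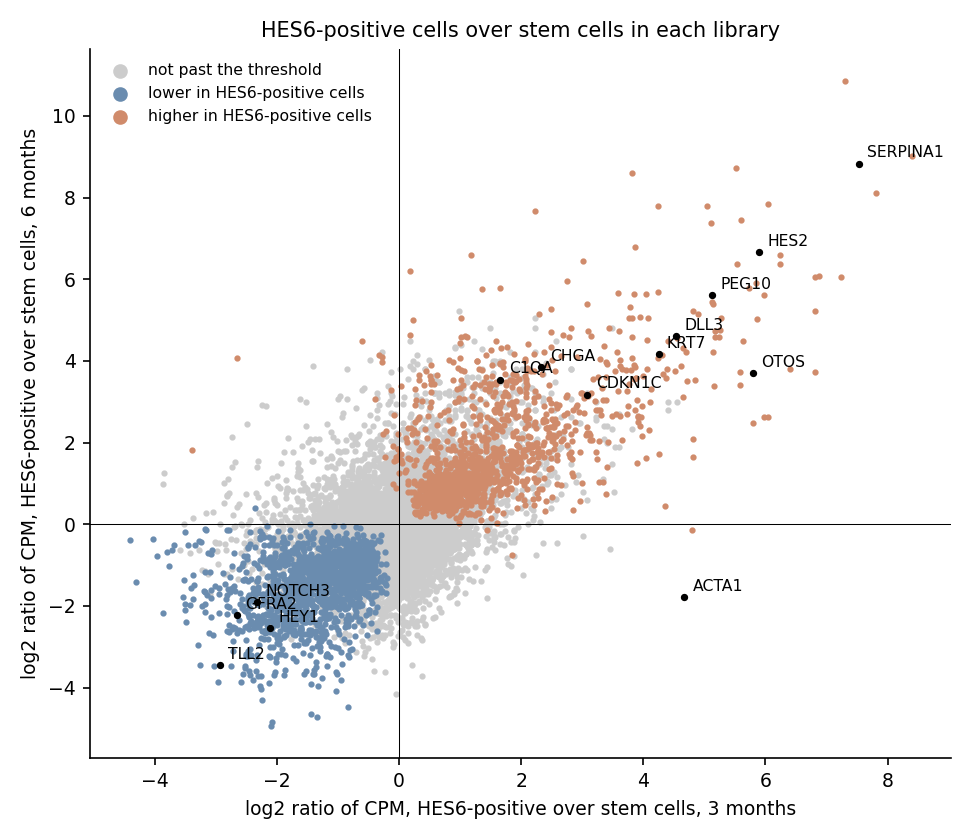
Each point is a gene outside the selection rules, with its log2 ratio of CPM in HES6-positive over stem cells at 3 months (x axis) and 6 months (y axis). Colours mark the adjusted p under 0.05. SERPINA1 and HES2 lie far out on both axes, and ACTA1 lies at 4.67 on the 3-month axis and at -1.77 on the 6-month axis.

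Notch pathway genes went both ways. The ligands DLL1 and DLL3 and the fringe enzymes LFNG and MFNG were higher in HES6-positive cells, and the receptors NOTCH2 and NOTCH3 and several target genes were lower. Of the 30 genes tested 7 were higher and 10 lower, against 9.36% and 11.1% of all genes, and the median log2 ratio was -0.21 against -0.08 over all genes outside the selection rules. The shares of all genes are the measure for the counts of the later lists as well. DLL3, a ligand that acts within the cell that makes it, had 59.2 and 50.2 CPM in HES6-positive cells at 6 and 3 months, against 2.44 and 2.16 CPM in stem cells (fitted log2 ratio 4.56, SE 0.37, adjusted p = 4.63e-16). It was seen in 17 and 52 HES6-positive cells. DLL1, a ligand presented to neighbouring cells, had 21.0 and 26.5 CPM in HES6-positive cells at 6 and 3 months, against 2.82 and 1.68 CPM in stem cells (fitted log2 ratio 3.50, SE 0.57, adjusted p = 1.6e-06). The share of cells with DLL1 after thinning was 3.23% and 5.71% in HES6-positive cells, and 0.368% and 0.233% in stem cells. In endothelial cells and macrophages it was 3.72% and 3.64%, above stem cells and within counting error of the HES6-positive cells. Whether those cells make DLL1 or carry it as background was not tested. LFNG and MFNG, glycosyltransferases that modify Notch, had fitted ratios of 1.95 and 3.63. The ligand DLL4 and the remaining fringe gene RFNG did not pass the test (adjusted p = 0.331 and 0.807). JAG1, the ligand abundant in stem cells, was lower, with 19.1 and 25.8 CPM in HES6-positive cells at 6 and 3 months, against 53.7 and 87.3 CPM in stem cells (fitted log2 ratio -1.67, SE 0.26, adjusted p = 7.13e-07).

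Among the receptors NOTCH2 and NOTCH3 were lower, with fitted ratios of -1.57 and -2.17. NOTCH3 had 22.9 and 28.0 CPM in HES6-positive cells at 6 and 3 months, against 85.4 and 139 CPM in stem cells. NOTCH1 was higher at 1.12 (adjusted p = 0.00173), from 16 and 65 UMIs. After thinning, NOTCH1 was seen in 6.45% and 10.3% of HES6-positive cells and in 3.40% and 3.74% of stem cells. It was seen in more of the endothelial cells and macrophages, 16.9% and 15.1%. NOTCH4 did not pass (adjusted p = 0.391). RBPJ, the DNA-binding partner of Notch, was slightly higher at 0.68 (adjusted p = 0.00653). At 6 months RBPJ had 74 UMIs in HES6-positive cells, and 32 without the cells carrying immune or endothelial markers. At 3 months it had 210 and 176. Without the library block RBPJ did not pass. All 6 target genes named next were lower. HES1 had 290.4 and 284 CPM in HES6-positive cells at 6 and 3 months, against 621 and 637 CPM in stem cells (fitted log2 ratio -1.13, SE 0.16, adjusted p = 3.14e-08), and HEY1 had 21.0 and 20.8 CPM in HES6-positive cells at 6 and 3 months, against 123 and 90.1 CPM in stem cells (fitted log2 ratio -2.28, SE 0.26, adjusted p = 5.7e-11). HES5 had 0 and 5 UMIs in HES6-positive cells at 6 and 3 months, against 218 and 2998 in stem cells (fitted log2 ratio -4.47, SE 0.48, adjusted p = 1.45e-11), and its 0 at 6 months allows up to 3 UMIs. HEY2, HEYL and NRARP were lower at -1.72, -2.27 and -1.21. NUMB, an inhibitor of Notch, was lower at -0.73 (adjusted p = 0.0279, and 0.115 without the cells carrying immune or endothelial markers), and its relative NUMBL was higher at 1.13.

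Genes of neural and neuroendocrine commitment made up the list with most genes higher. Of 29 tested, 18 (62.1%) were higher and 4 (13.8%) lower, against 9.36% and 11.1% of all genes, with a median log2 ratio of 1.00. SOX4 had 1446 and 1601 CPM in HES6-positive cells at 6 and 3 months, against 244 and 282 CPM in stem cells (fitted log2 ratio 2.53, SE 0.14, adjusted p = 1.77e-23). CDKN1C had 1253 and 1143 CPM in HES6-positive cells at 6 and 3 months, against 139 and 135 CPM in stem cells (fitted log2 ratio 3.13, SE 0.15, adjusted p = 2.82e-26). Both were high in each library. NEUROD1, a differentiation factor that follows proneural factors, had 16 and 28 UMIs in HES6-positive cells at 6 and 3 months, against 4 and 24 in stem cells (fitted log2 ratio 6.09, SE 0.87, adjusted p = 6.11e-08). Only 6 and 18 of the HES6-positive cells held its UMIs. ST18 and MYT1, related zinc finger factors, had fitted ratios of 4.35 and 2.32, and PROX1, a homeobox factor, had 3.34. The neuronal RNA-binding protein ELAVL3 had 4.34, the microtubule proteins DCX and STMN1 had 4.96 and 1.13, and RGS16 had 2.06. In HES6-positive cells at 6 and 3 months MYT1 rested on 2 and 17 UMIs and RGS16 on 13 and 17. Without the library block neither passed (adjusted p = 0.0918 for MYT1 and 0.0621 for RGS16).

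INSM1, a zinc finger factor of neuroendocrine differentiation, was less even. It had 59.2 and 122 CPM in HES6-positive cells at 6 and 3 months, against 39.6 and 23.1 CPM in stem cells, with log2 ratios of 0.58 and 2.40 (fitted log2 ratio 1.64, SE 0.25, adjusted p = 4.2e-07). Without the library block its adjusted p was 0.0841. After thinning INSM1 was seen in 8.06% and 20% of HES6-positive cells and in 5.23% and 3.50% of endothelial cells and macrophages, so its share at 6 months lay within counting error of that background. NEUROD4 had 5 and 9 UMIs in HES6-positive cells at 6 and 3 months, against 258 and 141 in stem cells and did not pass the test (adjusted p = 0.634). GADD45G, a growth arrest gene that proneural factors induce in frog, was higher at 0.68. After thinning it was seen in 27.4% and 18.9% of HES6-positive cells and in 12.0% and 8.76% of stem cells. Endothelial cells and macrophages gave 18.2% and 16.4%. The inhibitors of basic helix-loop-helix proteins went different ways. ID1, with 1242 and 2074 UMIs in HES6-positive cells at 6 and 3 months, was higher. ID2 was higher at 1.00, while ID3 and ID4 were lower at -0.85 and -1.19. At 6 months ID2 had 234 UMIs, and 95 without the cells carrying immune or endothelial markers. Without the library block ID2, ID3 and ID4 did not pass (adjusted p = 0.171, 0.202 and 0.0528). SOX11 was lower at -1.44, unlike its relative SOX4.

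Pituitary transcription factors of the early gland were present, and those of single hormone lineages varied. PITX1, a homeobox factor of the whole anterior lobe, had 311 and 349.8 CPM in HES6-positive cells at 6 and 3 months, against 211 and 278 CPM in stem cells and did not pass the test (adjusted p = 0.0524). Without the cells carrying immune or endothelial markers PITX1 passed, at 0.62. After thinning PITX1 was seen in 41.9% and 46.9% of HES6-positive cells, in 35.7% and 43.9% of stem cells, and in 2.59% and 4.16% of endothelial cells and macrophages. LHX3, which most anterior lineages need in mouse, was lower, with 289 and 323 CPM in HES6-positive cells at 6 and 3 months, against 379 and 583 CPM in stem cells (fitted log2 ratio -0.63, SE 0.16, adjusted p = 0.00223). HESX1, an early factor of the gland, was lower at -1.56, from 4 and 6 UMIs.

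POU1F1, the factor of the growth hormone, prolactin and thyrotropin lineages, had 11 and 18 UMIs in HES6-positive cells at 6 and 3 months, against 1838 and 1382 in stem cells. It was lower at -1.51 (adjusted p = 3.35e-05), but 0.11 higher, with no call, when stem cells were held to the same hormone, SCGN and cycle limits. TBX19, the corticotroph factor, and NR5A1, the gonadotroph factor, had 0 UMIs in HES6-positive cells of both libraries. NR5A1 had 0 UMIs in the thinned stem cells, endothelial cells and macrophages as well, and so did TBX19 at 6 months. At 3 months TBX19 was seen after thinning in 0.194% of stem cells and 0.280% of endothelial cells and macrophages. Its 0 in HES6-positive cells there allows up to 2.09%. The absence of both genes therefore cannot be told apart from low detection. FOXL2, a gonadotroph and thyrotroph factor, was higher, with 42.0 and 73.1 CPM in HES6-positive cells at 6 and 3 months, against 1.24 and 4.75 CPM in stem cells (fitted log2 ratio 4.36, SE 0.34, adjusted p = 1.32e-16). After thinning it was seen in 3.23% and 11.4% of HES6-positive cells and in 0.123% and 0.679% of stem cells. In endothelial cells and macrophages the shares were 1.65% and 10.1%, above stem cells and within counting error of the HES6-positive cells. Whether endothelial cells and macrophages make FOXL2 or carry it as background was not tested. ISL1, another gonadotroph and thyrotroph factor, was higher at 0.98, RXRG, a thyrotroph nuclear receptor, at 2.36, and NR4A2, an early response receptor, at 0.98. RXRG rested on 5 and 13 UMIs in HES6-positive cells at 6 and 3 months. Without the library block ISL1, RXRG and NR4A2 did not pass (adjusted p = 0.183, 0.0999 and 0.101). Of the 24 lineage factors tested, 4 were higher and 9 lower, with a median of -0.40, and 9 were higher and 9 lower without the cells carrying immune or endothelial markers. Besides those above, the glucocorticoid receptor NR3C1 and the Wnt repressor TCF7L1 were each lower at -1.71.

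Secretory genes showed a split within the granins. CHGA, chromogranin A of hormone granules, had 546 and 910.4 CPM in HES6-positive cells at 6 and 3 months, against 38.0 and 181 CPM in stem cells (fitted log2 ratio 3.07, SE 0.20, adjusted p = 2.13e-20). Without the library block CHGA did not pass (adjusted p = 0.0879). The thinned share of cells with CHGA was 40.3% and 45.1% in HES6-positive cells, 3.27% and 10.4% in stem cells, and 2.87% and 13.2% in endothelial cells and macrophages. The related granins CHGB and SCG2 were lower, with fitted ratios of -2.11 and -2.43. PRL, limited in the HES6-positive cells by the rule, stood at 18180.1 and 12052 CPM in them and at 107467 and 56074 in stem cells. At 6 months 1 HES6-positive cell held 5213 of the 9515 PRL UMIs, and without the cells carrying immune or endothelial markers PRL stood at 8408 CPM. With stem cells held to the same limits CHGB and SCG2 were 0.23 and 0.19 higher, with no call. The part of the difference in PRL was not tested. STX1A, a protein of vesicle fusion, was higher at 3.21 (23 and 73 UMIs in HES6-positive cells at 6 and 3 months, against 155 and 203 in stem cells), RIMS2, a vesicle release protein, at 0.96, and SCG5, a chaperone of prohormone convertase, at 0.39. PCSK1N, a convertase inhibitor, was lower at -1.08, and the vesicle GTPase RAB3B at -1.35. Of 30 granule genes, 4 (13.3%) were higher and 8 (26.7%) lower, against 9.36% and 11.1% of all genes, with a median of 0.07. Without the cells carrying immune or endothelial markers 9 were higher and 7 lower.

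CGA, the glycoprotein hormone alpha subunit, was outside the selection. It stood at 10096 CPM at 6 months and 11055 at 3 months in HES6-positive cells, against 1807 and 3719 in stem cells (fitted log2 ratio 2.03, SE 0.11, adjusted p = 5.22e-24). CGA was also found in endothelial cells and macrophages, which are not known to make it. On UMI totals these had 3123 CPM at 6 months and 13626 at 3 months, and the HES6-positive cells without immune or endothelial markers had 13214 and 12179. At 6 months the HES6-positive cells lay above this background and at 3 months they did not exceed it. Dopamine receptor DRD2 was lower at -1.97, and the receptors SSTR5 and OXTR were higher, from 11 and 3 UMIs and from 9 and 11 UMIs in HES6-positive cells. Ion channel genes were more often higher than lower, 5 against 1 of 18. The calcium-activated potassium channel KCNMA1 was higher at 2.59 (adjusted p = 2.99e-16), the sodium channel SCN9A at 3.55, the calcium channel subunit CACNA2D1 at 1.46, the potassium channel KCNH2 at 1.30 and the glutamate receptor GRIA2, with 3 and 10 UMIs, at 3.36. The potassium channel KCNA5 was lower at -1.42.

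Stem cell genes outside the selection were mostly lower. Of 24 tested, 13 were lower and 2 higher, with a median log2 ratio of -0.95. ALDH1A1, a retinoic acid synthesis enzyme, had 149 and 189 CPM in HES6-positive cells at 6 and 3 months, against 624 and 618 CPM in stem cells (fitted log2 ratio -1.87, SE 0.17, adjusted p = 2.12e-14). GFRA2, a neurturin receptor of pituitary stem cells, was lower at -2.48, the glutamate transporter SLC1A3 at -2.39, S100B at -2.02 with 1 and 3 UMIs, and E-cadherin CDH1 at -1.0. SOX9, a stem cell factor, differed little, with 87.9 and 55.2 CPM in HES6-positive cells at 6 and 3 months, against 76.2 and 68.9 CPM in stem cells, and its sign was unstable (adjusted p = 0.876). CD24 and the keratin KRT8 were higher, at 1.72 and 0.65. VIM was lower at -1.31, with log2 ratios of -0.50 at 6 months and -2.13 at 3 months.

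Growth control genes of the stem cells were lower too. YAP1, the effector of the Hippo pathway, had 13.4 and 33 CPM in HES6-positive cells at 6 and 3 months, against 103 and 103 CPM in stem cells (fitted log2 ratio -2.04, SE 0.26, adjusted p = 2.44e-09). Its partner WWTR1 was lower at -1.17, their target CCN1 at -1.0 and the ligand WNT5A at -2.21, while TEAD2 was higher at 1.15. In the Hippo and Wnt list 10 of 29 were lower and 1 higher. Among growth factor genes 14 of 35 were lower and 2 higher, with a median of -0.73. The receptors FGFR1, FGFR2 and FGFR3 had -1.25, -1.85 and -1.90, and the feedback inhibitors SPRY1, SPRY2 and SPRY4 had -2.12, -1.30 and -1.37. The 2 that were higher were the receptor BMPR1B, at 3.03, and CRABP2, a carrier of retinoic acid to its receptor, with 588 and 638 CPM in HES6-positive cells at 6 and 3 months, against 82.3 and 107 CPM in stem cells (fitted log2 ratio 2.71, SE 0.17, adjusted p = 4.66e-21). Its relative CRABP1 was lower at -2.0.

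Matrix and adhesion genes were lower in 16 of 29 and higher in 2, with a median of -0.87. The basement membrane genes COL4A1 and NID1 were lower at -1.71 and -2.20, and the cadherins CDH2 and CDH11 at -0.94 and -2.60. The tight junction gene CLDN3 was higher at 1.14 and the laminin LAMA5 at 1.07. Cell cycle genes outside the rule were 3 higher and 4 lower of 33. These shares, 9.09% and 12.1%, were near the 9.36% and 11.1% of all genes tested, so the genes named next are examples only. The cyclins CCND2 and CCND3 and their kinase CDK6 were lower at -1.14, -1.37 and -2.25, and the replication gene MCM7 was higher at 1.27. CDKN1A, the inhibitor p21, was higher at 1.06 with all cells and had no call without the cells carrying immune or endothelial markers (0.29, adjusted p = 0.288). The 15 genes of oxidative phosphorylation had a median log2 ratio of -0.11, and of 24 ribosomal protein genes 4 (16.7%) were higher, against 9.36% of all genes.

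Of 26 immediate early and heat shock genes, 13 were higher and 6 lower. EGR4 and NR4A1, activity-induced factors, were higher at 3.67 and 1.45 and the chaperone HSPA8 at 0.86, while FOS, JUN and JUNB were lower at -0.82, -0.42 and -0.74. Genes of this kind also respond to tissue dissociation, and the part of that was not tested. The unfolded protein response had 5 higher (25%) and 2 lower (10%) of 20, against 9.36% and 11.1% of all genes. Interferon and antigen presentation genes had 3 higher and 3 lower of 17, or 17.6% each way. Without the cells carrying immune or endothelial markers they had 1 higher and 13 lower, where all genes gave 11.4% and 13.4%. IFI6, an interferon-induced gene, was lower, with 317 and 1008 CPM in HES6-positive cells at 6 and 3 months, against 739 and 3401 CPM in stem cells (fitted log2 ratio -1.50, SE 0.13, adjusted p = 1.59e-14). CD74 and C1QA, genes of antigen-presenting cells and macrophages, were higher at 2.17 and 2.61, and at -0.10 and 0.03, with no call, without those cells. C1QA is among the macrophage markers by which those cells were chosen. All 7 macrophage markers were higher with every cell included.

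Markers of the remaining cell types went different ways. At 6 months T or natural killer cell markers summed to 160 CPM on UMI totals in HES6-positive cells and 40.2 in stem cells. B or plasma cell markers summed to 158 and 9.80 CPM. At 3 months the sums were 22.8 and 12.8 CPM for the former and 2.21 and 5.58 CPM for the latter. Of 8 endothelial markers 0 were higher and 2 lower, of 6 T or natural killer cell markers 2 were higher, and of 2 B or plasma cell markers 1 was higher. These calls were lost without the cells carrying immune or endothelial markers. Those cells were chosen by these same genes, so the loss was largely set by the choice. Fibroblast and mural markers were lower in 3 of 7 and Schwann cell or pituicyte markers in 2 of 4. Of 6 neuron markers, GAD1 and SLC17A6 were higher and NEFL lower. The 2 erythroid markers had a median log2 ratio of -0.35. Among hormones outside the rule and receptors, 4 of 18 were higher and 5 lower.

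**Figure D2:**
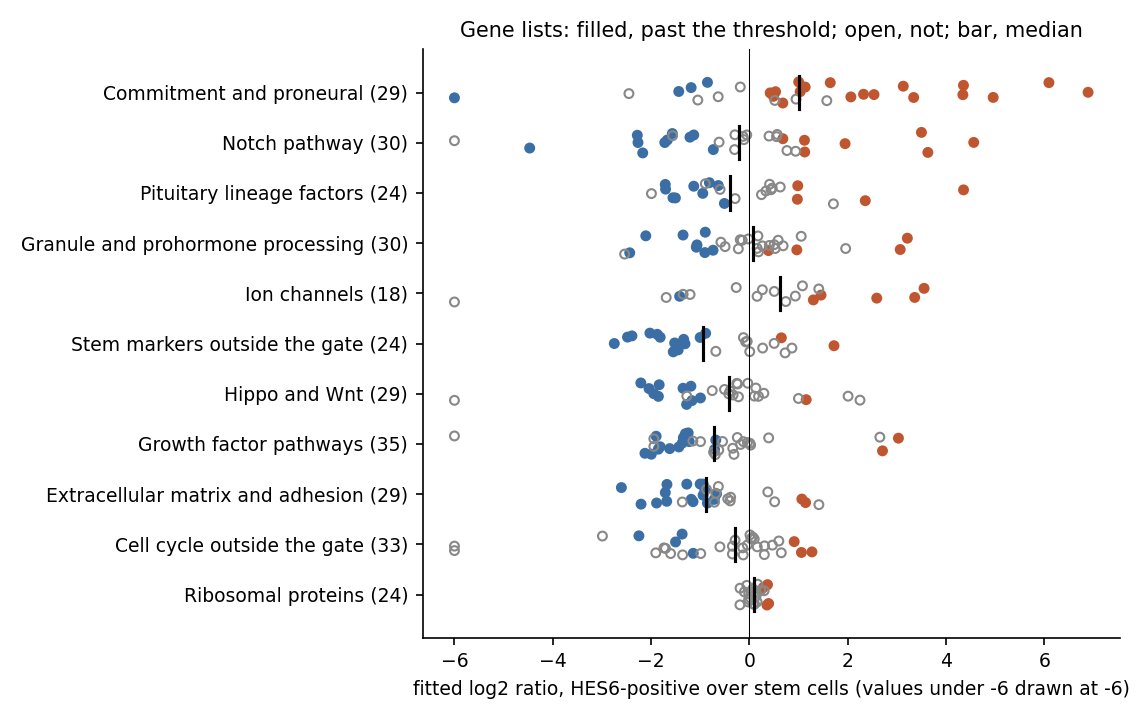
Fitted log2 ratio of HES6-positive over stem cells for each tested gene of 11 lists. Filled points passed edgeR's test at an adjusted p under 0.05, open points did not, bars mark list medians, and values under -6 are drawn at -6. The commitment list has a median of 1.00, and the stem marker, growth factor and matrix lists have medians of -0.95, -0.73 and -0.87.

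The HES6-positive cells were not uniform, and the 6 stem markers, which their rule did not use, ordered them. Without the cells carrying immune or endothelial markers, 16, 11 and 13 cells at 6 months had 0, 1 to 2 and 3 to 6 stem markers, and 43, 69 and 53 cells at 3 months did. Median UMIs were 7660.5, 6912 and 6573 at 6 months, and 6545, 5847 and 7036 at 3 months. These groups were formed from measured levels within 1 library each, so their values are a description, in CPM on UMI totals. HES6 was highest in cells without stem markers, at 2049, 1575 and 1040.4 CPM at 6 months and 2289, 1821 and 1052 at 3 months over the 3 groups in the order above. HES6 chose these cells, and its limit of 3 UMIs is a larger share of a shallow cell than of a deep one. The part of the rule in this order of HES6 was not tested.

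The summed levels of secretory genes were highest where stem markers were absent. CHGA was at 1455, 525 and 276 CPM at 6 months and 1994, 1191 and 272 at 3 months. CGA was at 27237, 10033 and 3567 CPM at 6 months and 23295, 15126 and 3503 CPM at 3 months. A few cells set some of these sums. In the 13 cells at 6 months with 3 to 6 stem markers, 4 cells held 478 of the 504 CGA UMIs and 1 held 25 of the 39 CHGA UMIs, and depths ran between 3622 and 31037 UMIs. The median cell had 23747, 2077 and 813 CPM of CGA at 6 months and 19576, 5393 and 729 CPM at 3 months, in the same order of groups. For CHGA it had 1221, 215 and 0 CPM at 6 months and 1092, 236 and 0 CPM at 3 months. The summed value of CGA in cells without stem markers exceeded that of endothelial cells and macrophages in both libraries. NEUROD1 had 12, 0 and 0 UMIs at 6 months, and 14, 9 and 3 at 3 months. The summed levels of Notch, growth factor and Hippo genes ran the other way, and the part of single deep cells in these sums was not tested. HES1 was at 26.6, 277 and 623 CPM at 6 months and 3.73, 167 and 554 at 3 months, the inhibitor SPRY1 at 17.7, 29.2 and 205 CPM at 6 months and 7.45, 86.1 and 212 CPM at 3 months, and YAP1 at 0, 14.6 and 42.5 CPM at 6 months and 0, 14.8 and 66.4 CPM at 3 months. CDKN1C was present throughout, at 1765, 2319 and 927 CPM at 6 months and 1927, 1316 and 876 CPM at 3 months. CRABP2 was lowest without stem markers, at 532, 1239.5 and 892 CPM at 6 months and 276, 923 and 791 CPM at 3 months. INSM1 differed between libraries, at 62.1, 102 and 28.3 CPM at 6 months and 302, 111 and 51.9 CPM at 3 months.

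**Figure D3:**
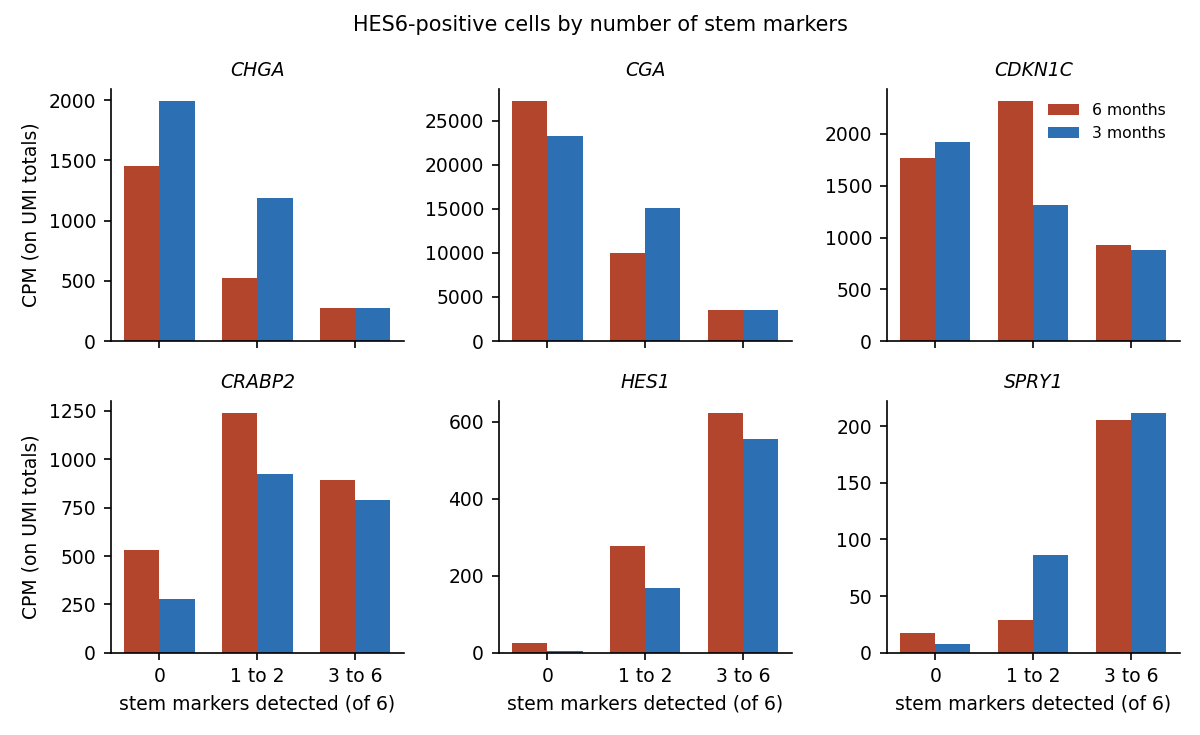
CPM on UMI totals of 6 genes in HES6-positive cells without immune or endothelial markers that held 0, 1 to 2 or 3 to 6 stem markers, with 6 months as the left bar and 3 months as the right bar of each pair. CHGA and CGA are highest with 0 stem markers, and HES1 and SPRY1 with 3 to 6. The bars are sums over cells of 1 library and have no error bars.

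Most cells removed from the HES6 group carried SCGN, secretagogin, a calcium sensor of neuroendocrine cells. They numbered 25 at 6 months and 203 at 3 months and were set against the 63 and 186 HES6-positive cells in the same kind of fit. Of the selected HES6-positive cells, 7 at 6 months and 31 at 3 months held 1 SCGN UMI each. Of 9062 genes tested, 507 (5.59%) were higher in the selected HES6-positive cells and 276 (3.05%) lower. This comparison was added after the data were seen, and SCGN itself was set by the rule. The SCGN cells were not held to the hormone limits, and the 44 cells with immune or endothelial markers were kept. Macrophage genes moved with it, C1QA having 548 and 361 UMIs in the selected HES6-positive cells at 6 and 3 months, against 0 and 126 in the SCGN cells (log2 ratio 3.50, SE 0.73, adjusted p = 0.00878). The part of the 44 cells in the counts was not tested. CDKN1C had 1442 and 1248 CPM in the HES6-positive cells studied here, against 58.9 and 113 CPM in the SCGN cells (log2 ratio 3.91, SE 0.30, adjusted p = 1.01e-05), and HES1 had 334 and 309.9 CPM against 27.2 and 42.6 (log2 ratio 3.07, SE 0.29, adjusted p = 5.04e-05). SERPINA1, CRABP2 and KRT7 were higher too, with log2 ratios of 3.55, 3.09 and 1.28. The cells with SCGN had more of the secretory genes. CHGA had 629 and 994 CPM against 4009 and 6387 (log2 ratio -2.68, SE 0.18, adjusted p = 3.11e-06) and CGA 11613 and 12069.8 CPM against 30313 and 46348 (log2 ratio -1.66, SE 0.13, adjusted p = 1.01e-05). INSM1 and FOXL2 were lower in the selected HES6-positive cells, at -0.96 (adjusted p = 0.0345) and -1.12 (adjusted p = 0.0439). SOX4 had 1664 and 1748 CPM against 1599 and 1025 (adjusted p = 0.307) and PEG10 349 and 250.5 CPM against 371 and 312 (adjusted p = 0.701), and neither passed. Without the library block CHGA and CGA did not pass (adjusted p = 0.0682 each), nor did KRT7 at 0.155 or INSM1 at 0.398.

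Between the ages, CDKN1C and SOX4 differed by less than 2-fold in HES6-positive cells, and most genes named as higher at 6 months lost their UMIs when the cells with immune or endothelial markers were left out. A gene was called when its summed counts, scaled by edgeR's factors, differed by 2-fold or more with at least 50 UMIs in all, and with 1 library an age no test was made. Of 5276 genes measured, 316 (5.99%) were higher and 249 (4.72%) lower at 6 months. Without the cells carrying immune or endothelial markers, 87 (2.01%) of 4327 were higher and 191 (4.41%) lower. CDKN1C had 1301 and 1157 CPM, a ratio of 0.17, and SOX4 1502 and 1620.3 CPM, a ratio of -0.11. Neither was called. INSM1 was called lower at 6 months, with 61.5 CPM against 123 at 3 months, and its share of cells at 6 months was within counting error of background. CHGA had 567 and 922 CPM, a ratio of -0.70, and in stem cells the ratio was -2.26.

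The genes named as higher at 6 months were mostly carried by the cells with immune or endothelial markers. The chemokine genes CXCL9, CXCL10 and CXCL11, induced by interferon gamma, had 236, 443 and 87 UMIs at 6 months and 0, 14 and 0 at 3 months. Without those cells they had 1, 1 and 0 UMIs at 6 months and 0 in each case at 3 months. With a floor of 3 counts in place of 0, CXCL9 was 7.75 higher on the log2 scale, and 12 cells held its UMIs. The exact 95% interval of CXCL9 began at 7.44. JCHAIN, an immunoglobulin joining chain, had 62 and 1 UMIs, BCL2L15 50 and 1, and PLAC8 242 and 21. Without those cells they had 1 and 1, 1 and 1, and 0 and 6. JCHAIN is among the marker genes by which those cells were chosen. C1R, a complement protease, had a log2 ratio of 3.98, and 0.14 without them. IRF1, an interferon response factor, was the exception among the 8. Its level was 377 CPM at 6 months, against 25.4 CPM at 3 months, with a ratio of 3.89 (exact 95% interval 3.37 to 4.46, counting error only). Without those cells the ratio of IRF1 was 3.96, and in stem cells it was 2.65. The macrophage markers moved with age as a list, 6 of 6 measured being higher, with a median of 2.04, and -0.20 without those cells. Macrophage markers were among the genes that chose those cells, so the drop was largely set by the choice. Of 14 interferon and antigen presentation genes measured, 7 were higher and 3 lower, against 5.99% and 4.72% of all genes measured.

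Of the genes named as lower at 6 months, EDN2 and ACTA1 stood out. EDN2, an endothelin peptide, had 0 UMIs at 6 months and 401 at 3 months, where 39 of 186 cells held it and the highest cell had 53 UMIs. Against a floor of 3 counts its log2 ratio was -5.61 or lower, and in stem cells it was -1.06. ACTA1, skeletal muscle actin, had 4 UMIs at 6 months and 358 at 3 months, a ratio of -5.03. It came from 21 cells at 3 months, and 1 of them held 79 UMIs. In stem cells the ratio of ACTA1 was 1.37. H1-2, a linker histone, had 6 and 144 UMIs in 5 and 73 cells, a ratio of -3.13, against -2.17 in stem cells. The keratin KRT17, with 2 and 55 UMIs, had ratios of -3.33 and -2.54 in the same order, the interferon-induced IFITM3 -3.68 and -1.26, and cardiac troponin TNNT2 -4.16 and -0.86. For the endothelial gene PLVAP and the deubiquitinase OTUD1 the ratios of -3.01, a bound from 0 UMIs at 6 months, and -2.75 became -0.53 and -0.69 without the cells carrying immune or endothelial markers. The value for PLVAP was again set by that floor, from 0 UMIs at 6 months and 15 at 3 months. PLVAP is among the marker genes by which those cells were chosen.

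**Figure D4:**
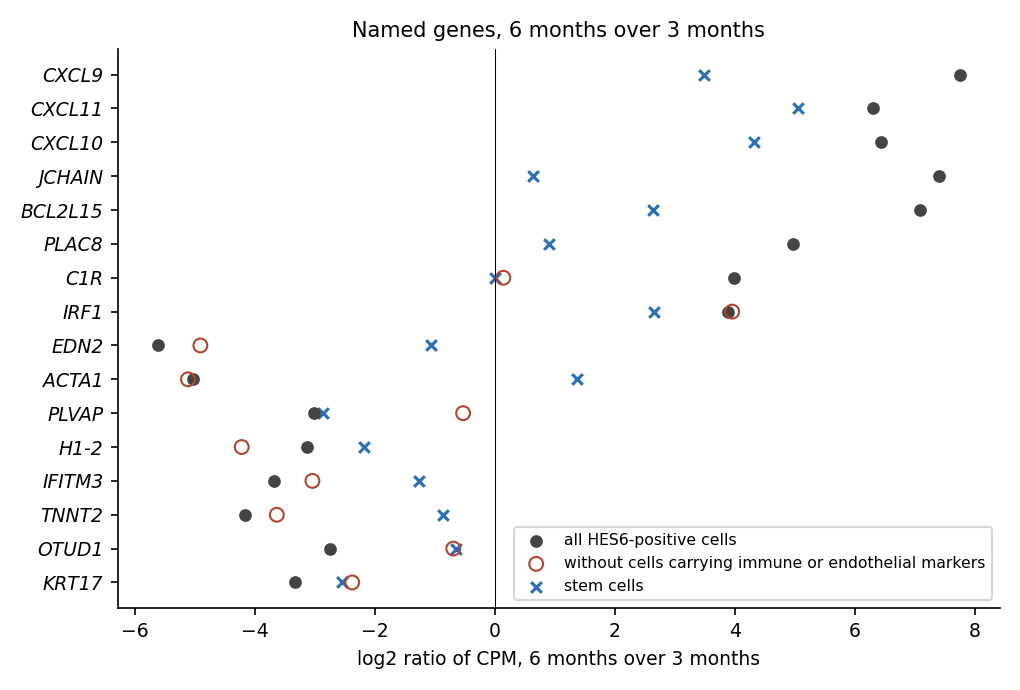
Log2 ratio of 6 over 3 months for the 16 genes named in the age comparison. Dots are all HES6-positive cells, rings the cells without immune or endothelial markers where a value could be given, and crosses stem cells. IRF1 has dot and ring close together, at 3.89 and 3.96, while C1R has them at 3.98 and 0.14.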

How the data were processed

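Per the labels' protocols, anterior lobes were dissected out, broken up with a collagenase, strained, freed of red cells and loaded as droplets. The authors deposited UMI counts per gene and cell, not normalized, by Cell Ranger (version 5.0.0 in the submitters' processing notes, 5.0.1 in the file headers). Gene symbols came from the files and, for 439 placeholders, from a RefSeq table (assembly ARS-UI_Ramb_v3.0) that matched 22726 of 23141 genes. The members and lists were chosen with earlier results of these data known.

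Counts were summed per library and cell set and tested with edgeR 4.0.16 (R 4.3.3): quasi-likelihood, TMM factors, genes kept by a minimum count of 10, library as a block, Benjamini-Hochberg adjustment. The libraries pair the cell sets because both sets come from the same library. Named genes were the 15 higher and 15 lower with the largest smaller-of-both-libraries ratio among calls with at least 50 UMIs, and for age the 8 each way whose interval lay farthest from 0. List members were examples. Some genes that these rules name are not reported here. Doublets were kept as the rule has them, and Scrublet, run in scanpy 1.11.5, served as an alternative. The fit was tested on simulated data. Other alternatives were DESeq2 1.42.0, other scaling, filters and rules.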

Additional observations from a re-analysis of the deposited data

Results flagged for a closer look

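ACTA1, skeletal muscle actin, lay on opposite sides of stem cells in the 2 libraries. Its log2 ratio of HES6-positive over stem cells was -1.77 at 6 months and 4.67 at 3 months, and the difference between the ages was not tested. At 3 months 21 of 186 HES6-positive cells held its 358 UMIs.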

How the results depend on the processing

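With no replicate block, that is without pairing the cell sets by library, 391 genes were higher and 427 lower than in stem cells, against 1346 and 1600 with it, and all of them were also called with it. Of 145 single genes 64 lost their call, among them NOTCH1, RBPJ, HES5, JAG1, POU1F1, LHX3, CHGA, CCN1, JUN and IFI6. DESeq2 gave 754 and 614, and thinning each cell to 2000 UMIs gave 695 and 799. In 1 library alone, 1593 to 1925 genes were higher and 1965 to 2168 lower by 2-fold, with no test. The share of HES6-positive cells at 6 and 3 months was 0.257% and 0.739% with a stricter HES6 limit, and 0.822% and 1.53% with a looser one. Without cells carrying immune or endothelial markers it was 0.302% at 6 months. Genes higher at 6 months numbered 689 at 20 UMIs, 101 with stricter HES6, 88 without cells of other classes, 99 thinned and 87 without immune or endothelial cells. Genes lower numbered 778 at 20 UMIs, 417 from mean per-cell CPM and 94 thinned. Log2 ratios to stem cells changed sign for POU1F1 (0.11), SCG2 (0.19) and CHGB (0.23) with stem cells under the same limits. They did for SOX9 with stricter HES6 (0.30), without immune or endothelial cells (0.095) and without 3 months (0.21, against -0.32 without 6 months), and for ACTA1 without 3 months (-1.77, against 4.67 without 6 months). Without cells of other classes CD74 was at -0.23 and C1QA at -0.077, and without immune or endothelial cells CD74 was at -0.10. The age ratio was -0.13 for C1R with stricter HES6. That of C1QA was -0.89 without cells of other classes and -0.20 without immune or endothelial cells. Beyond what each construction shows, the cause was not tested. With 63 cells at 6 months, genes of a few UMIs were not resolved.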
